A study of Mus musculus with 6 samples.

Results

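Regulatory T cells (Tregs) of the mouse kidney were selected on their Foxp3 count from 6 single-cell libraries, as T cell barcodes with at least 1 UMI, a counted RNA molecule, of Foxp3. A T cell barcode held at least 1 UMI of Cd3d, Cd3e or Cd3g and none of the B cell gene Cd79a. Among 12596 kept barcodes, 2555 were T cells, and 75 of these were Tregs. Rhabdomyolysis libraries 1, 2 and 3 held 5, 9 and 9 Tregs (23 in all), and control libraries 1, 2 and 3 held 23, 13 and 16 (52 in all). Foxp3 chose these cells, so its own level is given only as a description.

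Rhabdomyolysis is the breakdown of skeletal muscle, and the rhabdomyolysis kidneys came from C57BL/6J mice aged 8 weeks in which it had caused acute kidney injury; the control kidneys came from mice of the same strain and age. Live cells carrying CD45, the surface protein shared by leukocytes, were sorted from dissociated kidney, and the 3′ ends of their transcripts were counted with 6 antibody tags, 3 libraries per group. The labels used here give neither the time after injury nor the agent that caused it, and do not say whether each library came from its own animal, so the spread behind each p-value is that between libraries and can be technical.

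Tregs are CD4 T cells that restrain other immune cells, and the transcription factor Foxp3, encoded on the X chromosome, maintains their programme. They carry the inhibitory receptor Ctla4, the high-affinity interleukin-2 receptor chain Il2ra and several receptors of the TNF receptor family that pass costimulatory signals. In injured tissue they are known for limiting inflammation, and a tissue-adapted form is marked by the interleukin-33 receptor Il1rl1, Gata3, Klrg1 and the growth factor amphiregulin, encoded by Areg.

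The libraries held 10816727 to 22656666 gene UMIs. The median kept barcode had 4597 to 6191 gene UMIs in rhabdomyolysis libraries and 3608 to 3847 in control libraries. T cells went the other way. Their library medians were 2457, 3133 and 3451.5 gene UMIs in rhabdomyolysis and 3883, 3874 and 3725 in control. Pooled over libraries, the median Treg had 2449 gene UMIs in the rhabdomyolysis group and 3707 in the control group. The library medians of Tregs overlapped, at 2302, 2295 and 3445 in rhabdomyolysis and 3414, 3649 and 4271.5 in control. The Tregs of one library summed to 22750 to 63291 UMIs in rhabdomyolysis and 63822 to 109558 in control. Of 12580 distinct barcode sequences among kept barcodes, 16 occurred in more than 1 library, and 1 of these was a Treg.

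Foxp3 (GRCm38, chromosome X, 7579676 to 7595243) was counted 46 times in the 23 rhabdomyolysis Tregs and 91 times in the 52 control Tregs. At the threshold itself lay 12 of 23 rhabdomyolysis Tregs and 32 of 52 control Tregs with a single Foxp3 UMI; 8 and 11 had 2 UMIs, and 3 and 9 had at least 3. Just outside it lay 2480 T cell barcodes with none. Among kept barcodes that should lack the gene, 0 of 1194 B cells had a Foxp3 UMI, which allows a share of up to 0.251%, and 1 of 6275 macrophages did (0.0159%), against 2.94% of T cells. Of 627 T cells with Cd8a or Cd8b1 UMIs, 4 had a Foxp3 UMI (0.638%), and these 4 are among the 75 Tregs. A barcode of control library 1 among them held 5 Cd8a UMIs and 75 UMIs of the CD8a tag. The median depths were 2953 UMIs for the B cells, 4206 for the macrophages and 3766 for the T cells.

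The label was checked on 5 Treg genes that the choice of cells did not use: Ikzf2 (the transcription factor Helios), Ctla4, Tnfrsf4 (OX40), Tnfrsf18 (GITR) and Il2ra (CD25). At least 2 of the 5 were detected in 72 of 75 Tregs, 22 of 23 in rhabdomyolysis and 50 of 52 in control. The same held in 374 of 2480 Foxp3-zero T cells (15.1%) and 82 of 415 Foxp3-zero CD4 T cells (19.8%), which are T cells with Cd4 UMIs and none of Cd8a, Cd8b1 or Foxp3. Tregs with a single Foxp3 UMI fitted the label nearly as often as those with more, 41 of 44 (93.2%) and 31 of 31.

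**Figure D1:**
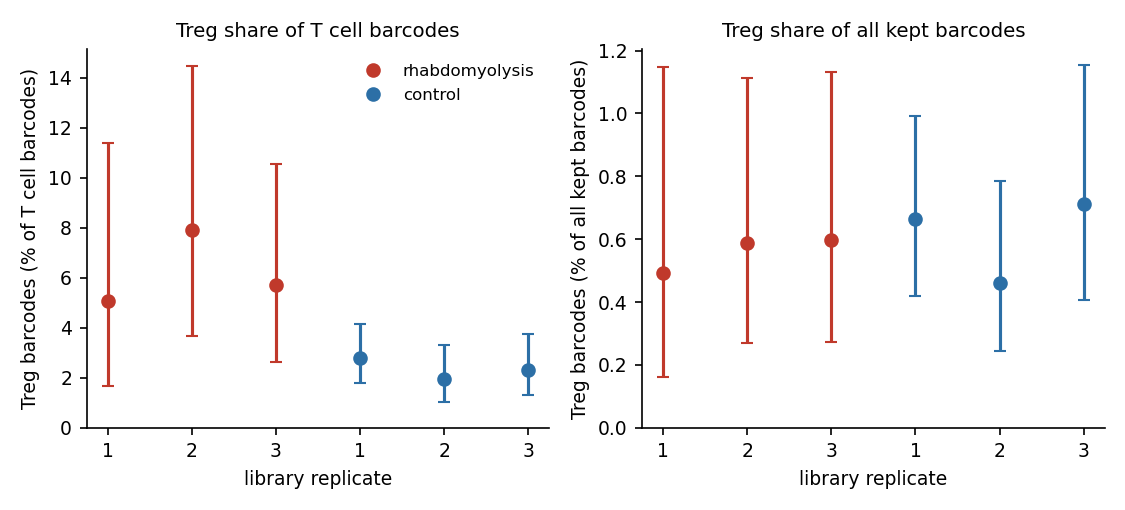
Tregs as a percentage of T cell barcodes (left panel) and of all kept barcodes (right panel), 1 point per library with its exact 95% binomial interval, which covers counting error only, rhabdomyolysis left of control. All 3 rhabdomyolysis libraries lie above all 3 control libraries as a share of T cells (5.05 to 7.89% and 1.94 to 2.79%), while the groups overlap as a share of kept barcodes.

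The first question was whether kidneys with rhabdomyolysis held more or fewer Tregs. Among T cells the Treg share was 2.64 times as high: Tregs made up 5.05, 7.89 and 5.70% of T cell barcodes in rhabdomyolysis libraries, against 2.79, 1.94 and 2.32% in control libraries (6.21 ± 1.49% and 2.35 ± 0.426%, SD, n = 3 each). The groups did not overlap. On the log2 scale the difference was 1.38 ± 0.35 (SE; 95% interval 0.63 to 2.13; adjusted p = 0.0051, edgeR quasi-likelihood test over the T cell classes). An exact two-sided permutation test gave p = 0.1, the smallest that 3 libraries against 3 can give. With every barcode thinned to 1000 UMIs the difference was 1.82 and no longer passed the test (adjusted p = 0.127).

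As a share of all kept barcodes, Tregs did not differ detectably, with 0.494, 0.587 and 0.598% in rhabdomyolysis libraries and 0.663, 0.460 and 0.712% in control libraries (log2 difference -0.10 ± 0.27, 95% interval -0.73 to 0.52, adjusted p = 0.781, same test). The interval allows a change of more than 0.5 log2 units either way. The 5 other classes of kept barcodes all passed the same test. T cells as a whole were 9.77, 7.44 and 10.5% of kept barcodes in rhabdomyolysis and 23.7, 23.7 and 30.7% in control. The median Treg held 2, 2 and 4 UMIs of Cd3d, Cd3e and Cd3g in rhabdomyolysis libraries and 9, 10 and 11.5 in control libraries. With at least 2 such UMIs required, T cells were 8.69, 5.74 and 9.10% of kept barcodes in rhabdomyolysis and 22.4, 22.1 and 28.6% in control. For B cells the log2 difference in this share was -1.0 (adjusted p = 0.000823), and for barcodes that were neither T nor B cells it was 0.44 (adjusted p = 0.0064). The log2 difference of Foxp3-zero CD4 T cells as a share of kept barcodes was -2.49 (adjusted p = 0.000715). In a quasi-binomial model of the same share its adjusted p was 0.0571. Tregs made up 35.7, 50.0 and 37.5% of Tregs and Foxp3-zero CD4 T cells together in rhabdomyolysis libraries, against 14.5, 12.5 and 9.36% in control libraries (exact permutation p = 0.1). Foxp3-zero CD4 T cells needed a Cd4 UMI and Tregs did not. Of Tregs, 5 of 23 in rhabdomyolysis and 21 of 52 in control held one. Thinned to 1000 UMIs, rhabdomyolysis library 2 had 0 Foxp3-zero CD4 T cells. The part of Cd4 detection in these shares was not tested. The share of kept barcodes depended on which barcodes were kept: without the minimum of 0.3% Malat1, a nuclear RNA used to leave out emptied droplets, Tregs were 0.149, 0.181 and 0.139% in rhabdomyolysis and 0.464, 0.263 and 0.299% in control, a log2 difference of -1.12 that passed the test (adjusted p = 0.0102).

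Tregs were next set against Foxp3-zero CD4 T cells of the same libraries, with counts summed per library, scaled to CPM (UMI counts relative to the summed gene UMIs of the same cells) and library as a block. Of 827 genes tested, 5 passed an adjusted p of 0.05 (0.605%; edgeR quasi-likelihood test, Benjamini-Hochberg). Foxp3 and Cd4 are 2 of these and were used to choose the cells. The other 3 were Treg genes, all higher in Tregs. Ikzf2 (chromosome 1, 69531207 to 69687351) had 646, 396 and 269 CPM in rhabdomyolysis Tregs and 1022, 1175 and 726 CPM in control Tregs, while Foxp3-zero CD4 T cells had 63.1 to 238 CPM in rhabdomyolysis and 83.8 to 93.6 CPM in control. Its log2 difference was 2.90 ± 0.39 (SE, adjusted p = 0.0077). Tnfrsf4 (chromosome 4, 156013595 to 156016613) and its close neighbour Tnfrsf18 (chromosome 4, 156026322 to 156028894) were higher by 2.48 ± 0.41 (adjusted p = 0.019) and 1.46 ± 0.28 (adjusted p = 0.048). Leaving out rhabdomyolysis library 2 or any of the control libraries ended all 3 calls, at log2 differences of 2.65 to 2.90 for Ikzf2, 2.19 to 2.5 for Tnfrsf4 and 1.28 to 1.5 for Tnfrsf18, and left 1 or 2 genes past the test.

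**Figure D2:**
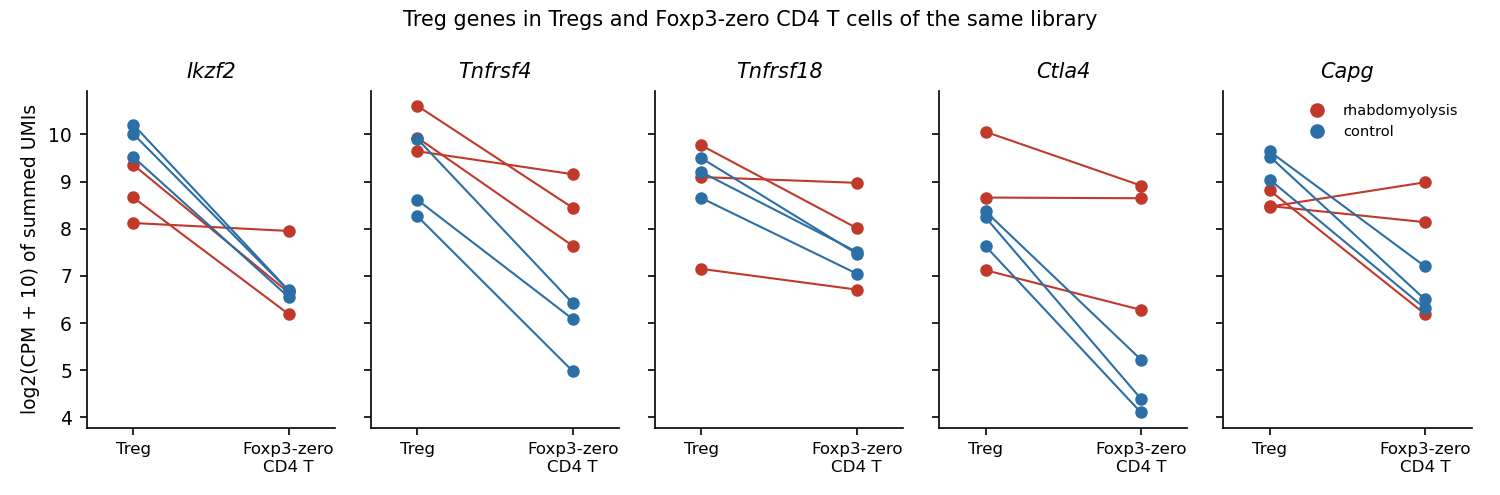
Level of 5 Treg genes in Tregs (left in each panel) and Foxp3-zero CD4 T cells (right), as log2(CPM + 10) of summed UMIs, with a line joining the values of 1 library and rhabdomyolysis and control in separate colours. Ikzf2 lies higher in Tregs in all 6 libraries, and the Ctla4 levels of Foxp3-zero CD4 T cells reach 67.7 to 473 CPM in rhabdomyolysis and 7.20 to 27.4 CPM in control.

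The 3 control libraries, which held at least 10 Tregs each, gave the fuller picture of Treg genes in uninjured kidney. There 82 of 3627 genes passed (2.26%), 41 higher (1.13%) and 41 lower (1.13%) in Tregs. Of 18 Treg core genes, 9 apart from Foxp3 were tested and 8 were higher, with a median log2 difference of 2.61 beside -0.01 over all genes. Ctla4 was higher by 4.08 ± 0.37, Ikzf2 by 3.38 ± 0.20, Capg (an actin-capping protein) by 2.82, Il2ra by 2.61, Izumo1r (folate receptor 4) by 1.95 and Icos, a costimulatory receptor encoded beside Ctla4 on chromosome 1, by 1.29. Of 15 tissue Treg genes, 8 were tested and 2 were higher: Klrg1, an inhibitory lectin-like receptor, by 4.18 ± 0.47 (adjusted p = 2.48e-08), and Tnfrsf1b, the second TNF receptor, by 1.71 (adjusted p = 0.00821). Gata3, Bhlhe40, Maf, Rora, Prdm1 and Batf did not pass. Lower in control Tregs were Cxcr6, a chemokine receptor of tissue-resident T cells, at a log2 difference of -2.47, and the transcriptional regulator Id2, at -1.80.

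Before the conditions were compared, the barcodes were examined for RNA of other cells. In 8 of 23 rhabdomyolysis Tregs and 17 of 52 control Tregs at least 2 UMIs came from 11 genes of other blood cells, among them Lyz2, C1qa, C1qb, C1qc, Cd79b, Ms4a1, S100a8, S100a9, Hbb-bs and Hba-a1. These barcodes were large. They held 62.3, 27.2 and 85.7% of all Treg UMIs in rhabdomyolysis libraries and 50.7, 32.9 and 53.0% in control libraries. In rhabdomyolysis library 3, a pair of barcodes with 26368 and 15960 UMIs carried 526 and 264 UMIs of those genes, and in rhabdomyolysis library 1 a single barcode held 14472 of the 23228 Treg UMIs.

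The antibody tag for F4/80, a macrophage surface protein, had a median of 21 UMIs in the 8 rhabdomyolysis Tregs with other-cell UMIs and 39 in the 17 control ones, against 2 in the remaining rhabdomyolysis Tregs and 3 in the remaining control Tregs. Its ranges touched or overlapped: 8 to 264 UMIs with other-cell UMIs and 0 to 9 without them in rhabdomyolysis, and 7 to 146 and 0 to 7 in control. Ikzf2 was nevertheless detected in 6 of the 8 and 15 of the 17. Of 7 macrophage markers, all had UMIs in the Tregs of both groups, and their summed level ranged from 25.9 to 150 per 10000 UMIs in rhabdomyolysis and 25.7 to 116 in control. Of 7 monocyte markers, 5 had UMIs in rhabdomyolysis (1.32 to 41.4 per 10000) and 4 in control (7.83 to 30.3), with Vcan at 0 in both. Of 7 kidney tubule markers none had a UMI in rhabdomyolysis Tregs, and 4 had them in control (0.31 to 8.98 per 10000). In control library 3, 69 of the 73 tubule marker UMIs lay in 1 barcode, which held fewer than 2 UMIs of the 11 other-cell genes. Of 7 NK and cytotoxic markers, 6 had UMIs in rhabdomyolysis (0 to 33.2 per 10000, nearly all in library 1) and 5 in control (1.41 to 6.52), with Eomes at 0 in both.

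**Figure D3:**
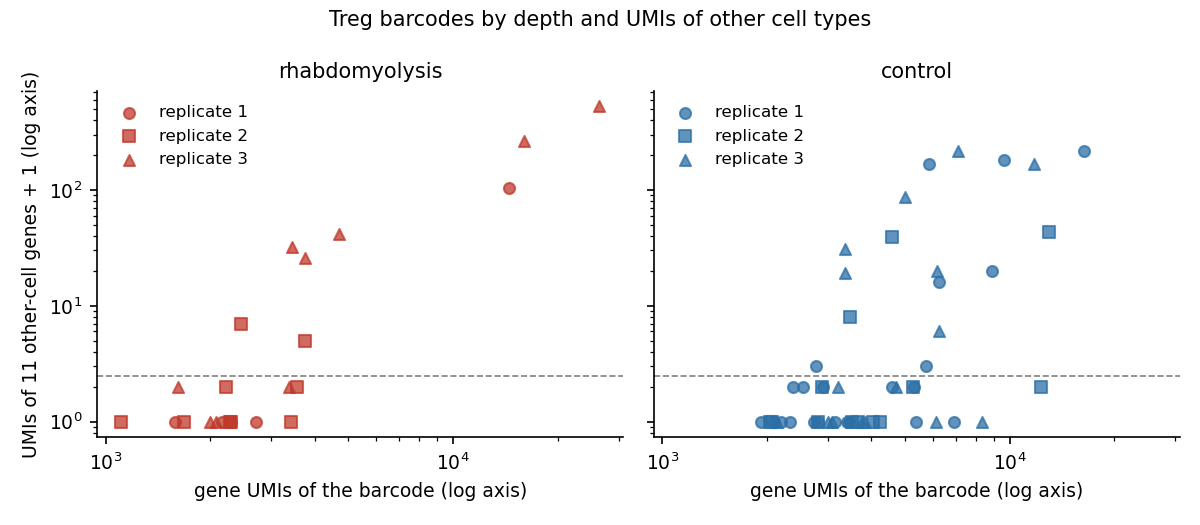
Each point is a Treg barcode, with its gene UMIs on the x axis and its summed UMIs of the 11 other-cell genes plus 1 on the y axis, both log axes, rhabdomyolysis in the left panel and control in the right, with a marker shape per library and a dashed line at the limit for filtered Tregs. The largest rhabdomyolysis barcodes hold the most other-cell UMIs, up to 526.

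Results between the conditions are therefore given for all 75 Tregs and again for the 50 with fewer than 2 other-cell UMIs, 15 in rhabdomyolysis (4, 7 and 4) and 35 in control (16, 10 and 9), called filtered Tregs below. The rhabdomyolysis sums are then thin, 34392 UMIs against 135081 in control. The filter used no MHC class II gene, and 1 filtered barcode of control library 2 held 156 H2-Ab1 UMIs.

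Over all Tregs, 1 of 913 genes passed the test between rhabdomyolysis and control (0.11%; edgeR quasi-likelihood test, Benjamini-Hochberg), 121 had an unadjusted p under 0.05, and DESeq2 called 19 (2.08%). The gene was Cxcl2, a neutrophil-attracting chemokine made mainly by myeloid cells, with 7, 20 and 199 UMIs in rhabdomyolysis Tregs and 1, 0 and 1 in control Tregs (log2 difference 7.23 ± 1.02, adjusted p = 0.0334). Its UMIs lay in 7 rhabdomyolysis barcodes, 149 of them in 1 barcode. Free RNA in near-empty droplets held 3610, 2672 and 2340 CPM of Cxcl2 in rhabdomyolysis libraries and 123, 77.0 and 87.7 CPM in control libraries, and its part in the result was not tested. The call was lost without rhabdomyolysis library 3 (log2 difference 5.85) and without control library 1, 2 or 3 (7.25, 6.85 and 7.52), with 0 genes past the test each time and 155, 98, 120 and 83 at an unadjusted p under 0.05, while 9 and 25 genes passed without rhabdomyolysis libraries 1 and 2. None of the 17 gene lists had a member past the test. T cell receptor and costimulation genes were negative for 9 of 9 tested, with a median log2 difference of -1.24 beside -0.0028 over all genes. Mitochondrially encoded genes were negative for 11 of 11, with a median of -0.82. Both counts were the same under library totals and DESeq2 size factors. In filtered Tregs the medians were nearer to 0, at -0.37 for 6 of 6 T cell receptor and costimulation genes negative and -0.53 for 9 of 9 mitochondrial genes negative, beside -0.04 over all genes. With DESeq2 size factors, 5 of these 6 T cell receptor and costimulation genes were negative there, with a median of -0.31.

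In filtered Tregs 34 of 358 genes passed (9.5%), 19 higher in rhabdomyolysis (5.31%) and 15 lower (4.19%), and 32 of the 34 had the same sign over all Tregs. Tnfrsf9 and Il7r rose most among the named genes. Tnfrsf9 (4-1BB, chromosome 4, 150920155 to 150946104), a TNF receptor family member that appears on activated T cells, had 914, 785 and 1653 CPM in rhabdomyolysis and 55.5, 46.7 and 78.5 CPM in control (log2 difference 4.04 ± 0.53, adjusted p = 8.68e-05). Il7r, the interleukin-7 receptor chain that is usually low on Tregs, had 1599, 1691 and 1322 CPM in rhabdomyolysis and 166, 257 and 78.5 CPM in control (3.13 ± 0.42, adjusted p = 8.68e-05). For both genes every rhabdomyolysis library lay above every control library. These levels rest on few barcodes: 12 of the 15 Tnfrsf9 UMIs of rhabdomyolysis library 3 lay in 1 of its 4 filtered Tregs, and without that barcode its level was 429 CPM. Of the 14 Il7r UMIs of rhabdomyolysis library 1, 9 lay in 1 barcode, without which its level was 758 CPM.

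The same held over all 75 Tregs, where Tnfrsf9 had 344, 879 and 490 CPM in rhabdomyolysis and 146, 31.3 and 49.2 CPM in control, and Il7r had 689, 1626 and 537 CPM in rhabdomyolysis and 110, 235 and 73.8 CPM in control. The log2 differences were 2.70 and 2.73 and missed the threshold (adjusted p = 0.0800 for each). Among the other T cells, those without Foxp3 UMIs under the same exclusion, where 639 of 7587 genes passed (8.42%), Tnfrsf9 rose by 3.11 and Il7r by 2.38.

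Tnfrsf4, the OX40 receptor, rose by 2.57 ± 0.45 in filtered Tregs (adjusted p = 0.000899), from libraries at 3883, 1087 and 3196 CPM in rhabdomyolysis and 518, 280 and 471 CPM in control. Single barcodes held 21 of the 34 UMIs in rhabdomyolysis library 1 and 24 of the 29 in rhabdomyolysis library 3, where it was the same barcode that held 12 Tnfrsf9 UMIs. Without them the levels were 1972 and 715 CPM. Over all Tregs it had 1550, 967 and 790 CPM in rhabdomyolysis and 949, 298 and 381 CPM in control, groups that overlap, with a log2 difference of 0.94 (adjusted p = 0.432). In filtered Foxp3-zero T cells Tnfrsf4 rose by 2.35 (adjusted p = 0.000941, edgeR quasi-likelihood test). The difference between the changes was 0.026 and did not pass. Of 7 Treg core genes tested in filtered Tregs, Tnfrsf9 and Tnfrsf4 were the 2 that passed. Ikzf2, Ctla4 and Tnfrsf18 gave no detectable change there, at -0.34, 0.66 and 0.50 (adjusted p = 0.647, 0.402 and 0.587). Over all Tregs Ikzf2 was lower in each rhabdomyolysis library than in any control library, with a log2 difference of -1.25 (adjusted p = 0.216).

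Nfkbia, the inhibitor of NF-kB and itself a target of NF-kB, rose by 2.58 ± 0.46 in filtered Tregs (adjusted p = 0.00104). It had 4226, 7246 and 771 CPM in rhabdomyolysis and 721, 888 and 445 CPM in control, so that rhabdomyolysis library 3 lay within the control range. Dusp1, a phosphatase gene, rose by 1.85 (adjusted p = 0.0281) and Txnip, a regulator of glucose uptake, by 1.37 (adjusted p = 0.0486). These were the 2 tested members of the glucocorticoid-responsive list, in a fit that 9.5% of all genes passed. Dusp1 is also on the immediate early and dissociation list, of which 1 of 9 tested members was higher. In filtered Foxp3-zero T cells Dusp1 rose by 1.71. The cause of these changes was not tested. The other genes that rose and were named by size were Fam107b (2.93), the polyamine enzyme gene Odc1 (2.63), Irf2bp2 (2.59), the translation inhibitor Pdcd4 (2.44), Rgs1, a regulator of chemokine receptor signalling (1.70), and lactate dehydrogenase Ldha (1.58), all log2 differences with adjusted p between 0.00231 and 0.0201.

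**Figure D4:**
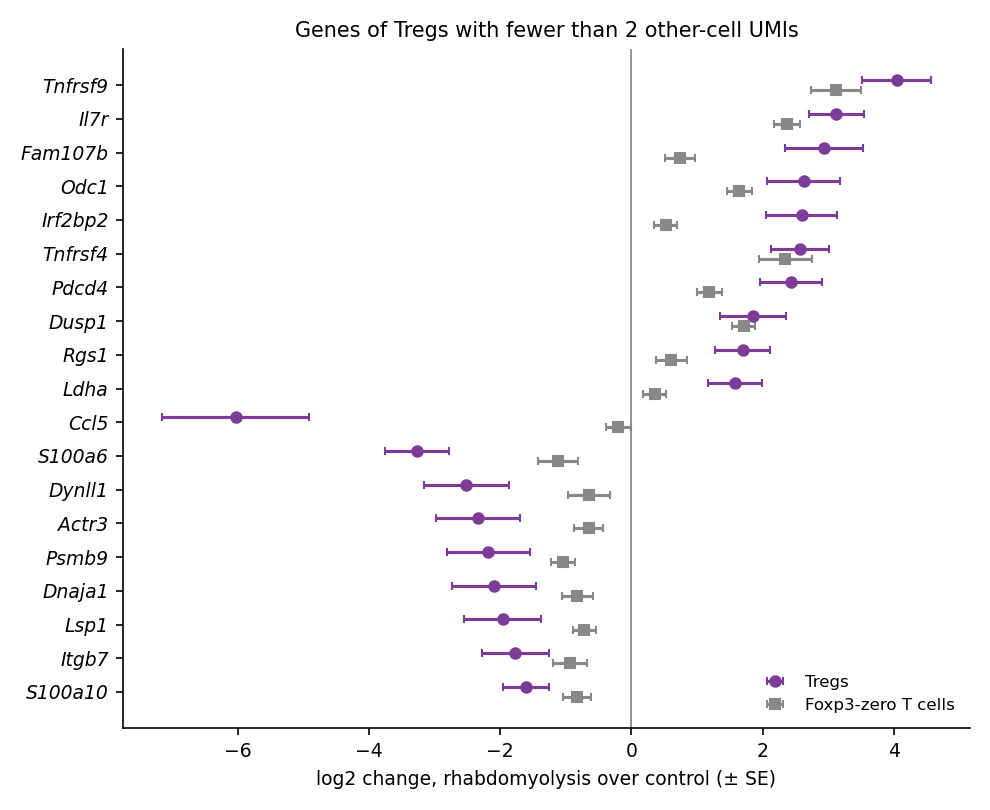
Log2 difference, rhabdomyolysis over control, of the genes named by size in filtered Tregs (circles) and of the same genes in Foxp3-zero T cells with fewer than 2 other-cell UMIs (squares), with bars of 1 SE. Tnfrsf9 (4.04) has the highest value in Tregs and Ccl5 (-6.04) the lowest, and S100a4 is left out because its rhabdomyolysis count is 0.

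Genes that fell included 3 of the S100 family, small proteins that are high in migrating and effector T cells. S100a4 had no UMI in any of the 15 filtered rhabdomyolysis Tregs and 81, 40 and 66 UMIs in the 3 control libraries. Taking 3 counts over the rhabdomyolysis group as the limit, its level was at least 15.9-fold higher in control (adjusted p = 9.15e-05). S100a6 had 114, 242 and 220 CPM in rhabdomyolysis and 1646, 1448 and 2696 CPM in control, a log2 difference of -3.27 ± 0.49 (adjusted p = 0.000207), and for S100a10 it was -1.61 (adjusted p = 0.00625). Over all Tregs these genes did not pass, at -1.34, -0.60 and -0.97 for S100a4, S100a6 and S100a10.

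Ccl5, a chemokine of effector T cells, had a log2 difference of -6.04 ± 1.13 in filtered Tregs (adjusted p = 0.0016), with 114, 0 and 0 CPM in rhabdomyolysis and 647, 1121 and 4738 CPM in control. Its rhabdomyolysis level rests on 1 library with any UMI. The control level lay in a minority of barcodes. Ccl5 was detected in 25, 0 and 0% of filtered rhabdomyolysis Tregs and 31.25, 20 and 33.3% of filtered control Tregs, groups that overlap. Thinned to 1000 UMIs, these shares were 10.9, 0 and 0% and 25.4, 14.2 and 31.5%, without overlap. Tmsb4x, an actin-binding peptide gene, fell by 1.25 ± 0.19 (adjusted p = 0.000207), with 10850, 7366 and 9918 CPM in rhabdomyolysis and 22289, 22890 and 19448 CPM in control. The immunoproteasome gene Psmb9 fell by 2.18, the gut-homing integrin Itgb7 by 1.77, the T cell receptor constant gene Trbc2 by 1.40 and the long noncoding AW112010 by 1.38. Dynll1 (-2.52), the actin nucleator Actr3 (-2.34), the chaperone Dnaja1 (-2.09) and Lsp1 (-1.96) completed the named genes that fell. Actr3 and Lsp1 were at 0.00 and 0.01 over all Tregs.

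Of the 34 genes, 25 also changed in the same direction in filtered Foxp3-zero T cells and none in the opposite one. A test of the difference between the changes, passed by 33 of 2315 genes (1.43%), was passed by 4 of the 34, S100a4, S100a6, Ccl5 and Tmsb4x, each with the more negative change in Tregs. Of the 33 genes, 31 were more negative in Tregs, and the median over all genes was -0.39. Against filtered Foxp3-zero CD4 T cells this test called 2 of 688 genes, Ctla4 and Id2. In Foxp3-zero CD4 T cells thinned to 1000 UMIs, mean detection was also lower in rhabdomyolysis for S100a4 (10.4 and 39.8%), S100a6 (14.2 and 49.8%) and Ccl5 (13.7 and 40.3%). When each library was left out of the comparison between conditions in turn, 6 genes passed every time: Il7r, Tnfrsf4, Tnfrsf9, S100a4, S100a6 and Tmsb4x. Without rhabdomyolysis library 2, which holds 7 of the 15 filtered rhabdomyolysis Tregs, 8 genes passed, 7 of them among the 34, and without control libraries 1 and 3 the counts were 16 and 15 genes, 14 of them among the 34 each time. These fits also tested other numbers of genes, 626, 250 and 251. Every one of the 34 that could be tested kept its sign without each library, 34 of 34 without a rhabdomyolysis library and 26 or 27 of 34 without a control library. Their median size without rhabdomyolysis library 2 was 1.82 log2 units, beside 1.81 with all libraries.

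Because the pooled median depth of Tregs differed between groups, detection was also compared after thinning every Treg to 1000 UMIs, which left out no Treg. Il7r was then expected in 60.6, 80.2 and 57.3% of rhabdomyolysis Tregs and 10.1, 17.6 and 7.32% of control Tregs. Tnfrsf9 was expected in 47.4, 52.1 and 38.1% of rhabdomyolysis Tregs and 8.45, 2.53 and 5.86% of control Tregs. Without thinning the means were 96.3 and 33.9% for Il7r and 71.9 and 17.2% for Tnfrsf9. The groups did not overlap for either gene (exact permutation p = 0.1 each, the smallest possible), nor for S100a4, at 4.98, 0 and 13.2% in rhabdomyolysis and 50.9, 45.5 and 46.2% in control.

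**Figure D5:**
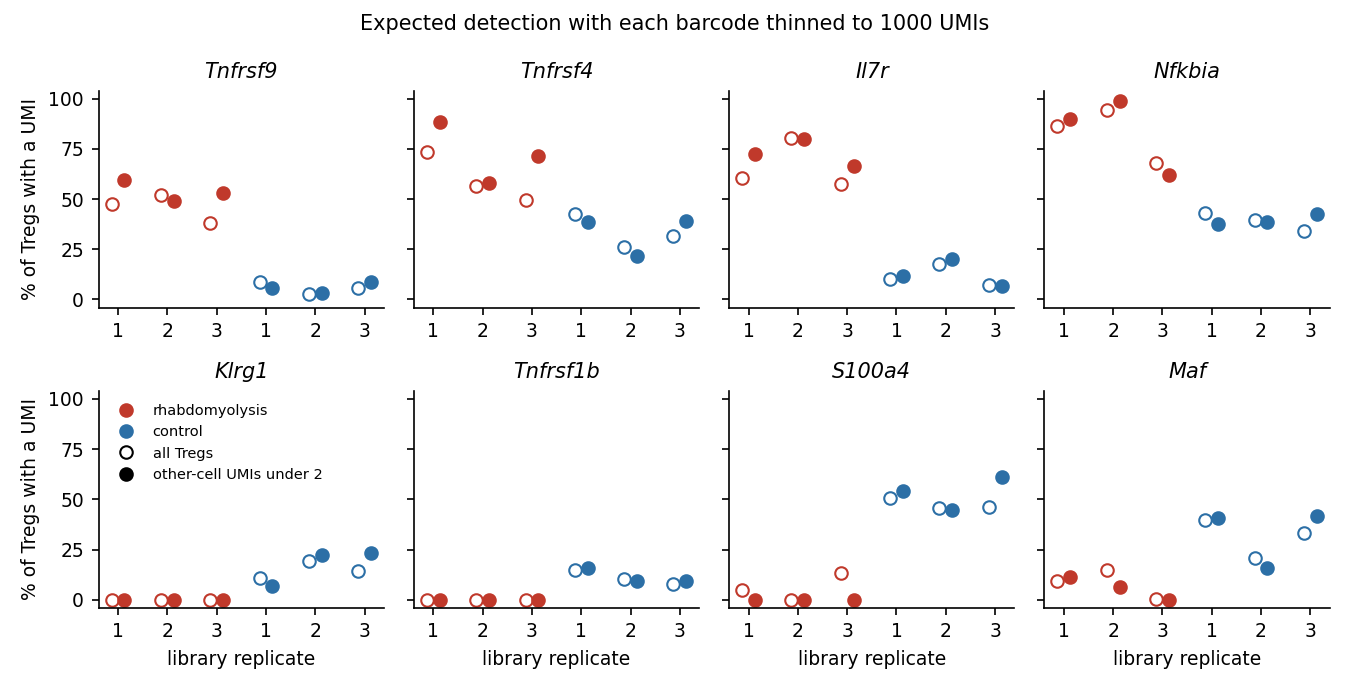
Percentage of Tregs expected to hold at least 1 UMI of a gene after thinning to 1000 UMIs per barcode, for 8 genes, with 1 open point per library for all Tregs and 1 filled point for filtered Tregs, rhabdomyolysis left of control in each panel. Il7r and Tnfrsf9 are higher in all rhabdomyolysis libraries, and Klrg1 is at 0 in all 3 of them.

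Most tissue Treg genes had counts too low to enter the gene-wise test. Klrg1 had no UMI in 23 rhabdomyolysis Tregs, against 18, 11 and 11 UMIs in control libraries, found in 18 of 52 Tregs. With 3 counts over the group as the limit it was at least 5.72-fold higher in control Tregs, and at least 2.04-fold in filtered Tregs. In a fit without the filter on low counts its difference passed over all Tregs (adjusted p = 0.00124) and missed the threshold in filtered Tregs (adjusted p = 0.0501). Thinned to 1000 UMIs, Klrg1 was expected in 0% of Tregs of each rhabdomyolysis library and in 10.7, 19.3 and 14.1% in control.

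Tnfrsf1b likewise had no UMI in rhabdomyolysis Tregs and 17, 6 and 7 in control, at least 4.29-fold higher in control. Il1rl1, the interleukin-33 receptor, had 0 UMIs in rhabdomyolysis Tregs and 4, 7 and 2 in control, at least 1.86-fold higher in control. Both limits are for all Tregs, including barcodes with other-cell UMIs. Filtered Tregs held only 34392 UMIs in rhabdomyolysis, against 135081 in control. There the limit of 3 counts lay above the control level of Il1rl1, so a lower level in rhabdomyolysis was not shown. For Tnfrsf1b no limit is given in filtered Tregs. Cxcr6 had 0 UMIs in rhabdomyolysis Tregs and 4, 6 and 27 in control; in Foxp3-zero T cells its log2 difference was -2.36 (adjusted p = 2.39e-05). Maf, a transcription factor of effector Tregs, had 1, 4 and 1 UMIs in rhabdomyolysis and 57, 16 and 40 in control, without overlap in CPM, yet its log2 difference of -2.86 ± 0.69 missed the threshold (adjusted p = 0.114). Gata3 had 0, 0 and 4 UMIs in rhabdomyolysis and 14, 5 and 8 in control. Rora, a nuclear receptor gene, had 1, 4 and 3 UMIs in rhabdomyolysis and 20, 13 and 11 in control (log2 difference -1.22, adjusted p = 0.384). Areg, the growth factor of repair-associated Tregs, had 0, 2 and 1 UMIs in rhabdomyolysis and 0 in control, where a count of 0 allows up to 3.

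At least 1 of Il1rl1, Klrg1, Areg and Gata3 was detected in 5 of 23 rhabdomyolysis Tregs and 32 of 52 control Tregs. After thinning the percentages were 0, 7.75 and 19.0% in rhabdomyolysis and 21.8, 34.9 and 25.1% in control (exact permutation p = 0.1). In filtered Tregs the groups overlapped, at 0, 9.97 and 41.1% in rhabdomyolysis and 19.3, 36.0 and 29.6% in control. Cycling genes (Mki67 or Top2a) were found in 1 of 23 rhabdomyolysis Tregs and 2 of 52 control Tregs. The suppressive cytokine Il10 had 4 UMIs in each group, in 1 rhabdomyolysis Treg and 3 control Tregs, and Tgfb1, also a suppressive cytokine gene, had 154 ± 23.6 CPM in rhabdomyolysis and 165 ± 43.0 CPM in control (SD, n = 3).

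The remaining tissue Treg genes were near the limit of detection. Their counts stand against 109269 Treg UMIs in rhabdomyolysis and 254644 in control. Batf, a transcription factor of effector Tregs, had 5 UMIs in rhabdomyolysis and 14 in control, Prdm1 had 2 and 14, Nfil3 had 1 and 3, Irf4 had 2 and 2, and Ccr8 had 0 and 1, with Pparg at 0 in both. Bhlhe40 was the exception in count, with 18 UMIs in rhabdomyolysis and 14 in control, each in 8 Tregs. Penk had 1 UMI in rhabdomyolysis and 7 in control, the 7 in a single Treg.

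Among Treg core genes too sparse to be tested between conditions, Nrp1 (neuropilin 1) had 1, 1 and 1 UMIs in rhabdomyolysis Tregs and 18, 4 and 9 in control Tregs, in 3 of 23 and 17 of 52 cells. The ectonucleotidase genes Nt5e (CD73) and Entpd1 (CD39) had 17 and 4 UMIs in rhabdomyolysis and 25 and 11 in control. Il2ra had 9 UMIs in rhabdomyolysis and 18 in control, and Ikzf4 had 8 and 14. Relative to the 109269 Treg UMIs in rhabdomyolysis and 254644 in control, Nt5e, Il2ra and Ikzf4 were higher in rhabdomyolysis and Entpd1 was lower. None of these differences was tested. Gpr83 (2 and 2), Itgb8 (1 and 5), Lrrc32 (0 and 2) and Tigit (0 and 2) were the rarest. Those tested over all Tregs and not called included Icos, at a log2 difference of -0.82 (adjusted p = 0.569), Izumo1r, at -1.08 (adjusted p = 0.414), and Capg, at -0.90 (adjusted p = 0.284).

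The change with rhabdomyolysis was then compared between Tregs and Foxp3-zero CD4 T cells by an interaction term. Of 1140 genes, 3 passed (0.263%): Ctla4, H2-Ab1 and H2-Aa. Ctla4 (chromosome 1, 60909025 to 60915832) had 129, 1055 and 395 CPM in rhabdomyolysis Tregs and 292, 188 and 320 CPM in control Tregs, groups that overlap. In Foxp3-zero CD4 T cells it had 67.7, 473 and 391 CPM in rhabdomyolysis and 11.1, 7.20 and 27.4 CPM in control, without overlap. The difference between the log2 changes, Tregs minus Foxp3-zero CD4 T cells, was -3.60 ± 0.53 (adjusted p = 0.0143) and -3.49 ± 0.67 in filtered barcodes (adjusted p = 0.042). Without rhabdomyolysis library 3, control library 1 or control library 2 it was -3.11, -3.36 and -3.42 and missed the threshold.

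A larger share of Foxp3-zero CD4 T cells carried Treg genes in rhabdomyolysis libraries. At least 2 of the 5 Treg genes were found in 55.6, 33.3 and 60% of rhabdomyolysis Foxp3-zero CD4 T cells and 16.2, 12.1 and 20.6% of control ones, 17 of 33 and 65 of 382 barcodes. After thinning these shares were 19.3, 18.1 and 27.6% in rhabdomyolysis and 3.75, 2.16 and 4.29% in control (exact permutation p = 0.1), while in Tregs they were 69.4, 55.7 and 64.1% in rhabdomyolysis and 63.5, 50.0 and 47.6% in control (p = 0.2, exact permutation). A Foxp3-zero barcode at this depth can be a Treg whose Foxp3 was not counted, and how many were was not tested.

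H2-Ab1 and H2-Aa, antigen-presenting MHC class II genes of B cells and myeloid cells, had interaction terms of 3.84 ± 0.49 (adjusted p = 0.0070) and 3.62 ± 0.61 (adjusted p = 0.047). H2-Ab1 had 195, 1 and 15 UMIs in rhabdomyolysis Tregs, all 195 of library 1 in 1 barcode that also held 102 other-cell UMIs, and 260, 338 and 319 in control Tregs. In filtered rhabdomyolysis Tregs both genes had 0 UMIs. Filtered barcodes gave 2 calls of 688 (0.291%), Ctla4 and Id2 (3.09 ± 0.54, adjusted p = 0.034).

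The antibody tags gave no call between Tregs and Foxp3-zero CD4 T cells. Tested over the 6 libraries on the share of all tag UMIs, 0 of 6 tags passed (exact sign permutation, adjusted p = 0.25 each, 0 with an unadjusted p under 0.05). Per cell, the CD3 tag was lower in Tregs in 6 of 6 libraries (mean log2 difference -0.60), at p = 0.03125, the smallest that 6 libraries allow in this permutation test, and at an adjusted p of 0.094. The CD4 tag was also lower per cell in 6 of 6 libraries (-0.78). That value is only a description, since Foxp3-zero CD4 T cells were chosen for holding Cd4 UMIs and Tregs were not: 5 of 23 rhabdomyolysis Tregs and 21 of 52 control Tregs held one. In summed counts, fewer Tregs of one kind and less RNA per Treg cannot be told apart.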

How the data were processed

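The authors deposited raw UMI counts per gene, antibody tag and barcode for every barcode, not filtered for cells, 1 matrix per library; they were made with Cell Ranger 4, per the file headers, on mm10, per the submitters' processing notes. Kept barcodes had at least 500 gene UMIs and 200 genes, at most 15% mitochondrial UMIs and at least 0.3% Malat1. Doublets were not removed in the main comparison; removing barcodes by a doublet score was an alternative.

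Treg counts were summed per library and tested with edgeR 4.0.16 in R 4.3.3 (TMM scaling, filterByExpr, quasi-likelihood F test, Benjamini-Hochberg adjustment over all genes tested, threshold 0.05). Tregs were compared between conditions and, with library as a block, with Foxp3-zero CD4 T cells; an interaction term compared the changes. DESeq2 1.42.0 was an alternative. Class shares were tested with the same edgeR model on barcode counts. Single values were compared by exact two-sided permutation tests. Detection at 1000 UMIs per barcode is the expected share under drawing UMIs without replacement. Counting intervals and limits (3 counts for a count of 0) cover counting error only. Barcodes with at least 2 other-cell UMIs were left out in an alternative run. Its combinations with other settings, all Foxp3-zero T cells as the comparison population, and its use for the shares were chosen after seeing the data.

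On simulated counts with 200 of 913 genes changed, the comparison between conditions recovered 23% of changes of log2 size 1 and 91% of size 2. Named genes were the Treg core and tissue Treg lists, members of other lists that passed a test, and up to 10 per direction with the largest change among genes past the threshold with an average log2 CPM of at least 6 and groups on separate sides; others were singled out after their values were seen. The members and lists were chosen with earlier results of these data known. Some genes and a result that rests on them are not reported here. Gene positions came from the RefSeq annotation of GRCm38.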

Additional observations from a re-analysis of the deposited data

Results flagged for a closer look

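For 3 genes the change with rhabdomyolysis differed between Tregs and Foxp3-zero CD4 T cells by the interaction test (edgeR, Benjamini-Hochberg). Ctla4 differed by -3.60 on the log2 scale (adjusted p = 0.0143): its level was 129 to 1055 CPM in rhabdomyolysis Tregs and 188 to 320 CPM in control Tregs, while Foxp3-zero CD4 T cells had 67.7 to 473 CPM in rhabdomyolysis and 7.20 to 27.4 CPM in control. H2-Ab1 differed by 3.84 and H2-Aa by 3.62 (adjusted p = 0.0070 and 0.047). For H2-Ab1, 195 of the 211 UMIs in rhabdomyolysis Tregs lay in 1 barcode, and the term changed sign when all Foxp3-zero T cells were the comparison.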

How the results depend on the processing

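The higher Treg share of T cells kept its direction under every alternative run and lost its call when thinned to 1000 UMIs (log2 1.82). The uncalled difference in the share of kept barcodes was -0.10. It was 0.20 with at least 2 Foxp3 UMIs, 0.079 when thinned, 0.39 without barcodes holding other-cell UMIs, and passed the test at -1.12 without the Malat1 minimum.

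Calls between conditions numbered 1. They numbered 61 without the expression filter, 2 with DESeq2 size factors, 19 with DESeq2, 5 with at least 2 Foxp3 UMIs, 10 after doublet removal, 34 in filtered Tregs, and 0 to 25 when 1 library was left out (25 without rhabdomyolysis replicate 2, 9 without replicate 1). Filtered Tregs are those with fewer than 2 other-cell UMIs, for which they numbered 35 with library totals, 31 with DESeq2 size factors, 19 with DESeq2, 67 without the filter, and 8 to 48 with 1 library left out. Correlations of same-numbered libraries were -0.125, -0.031 and 0.069, and those of other pairs ran from -0.068 to 0.097. These values cannot settle whether same-numbered libraries were handled together, which the labels do not say. A replicate block gave 3 calls, and 33 in filtered Tregs.

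Calls between Tregs and Foxp3-zero CD4 T cells numbered 5. They numbered 159 without the filter (159 also in filtered barcodes), 21 with DESeq2, 0 with at least 2 Foxp3 UMIs (38 at an unadjusted p under 0.05), 11 after doublet removal, 9 without Cd8a or Cd8b1 UMIs, 49 in filtered barcodes, 85 against all Foxp3-zero T cells, 82 in libraries with at least 10 Tregs, and 1 to 23 with 1 library left out. In filtered barcodes they numbered 44 with library totals, 50 with DESeq2 size factors, 30 with DESeq2, 123 against all Foxp3-zero T cells and 12 to 50 with 1 library left out. Interaction calls numbered 3. They numbered 19 without the filter, 0 with at least 2 Foxp3 UMIs (26 at an unadjusted p under 0.05), 1 against all Foxp3-zero T cells, and 0 to 7 with 1 library left out. In filtered barcodes they numbered 1 with library totals, 33 against all Foxp3-zero T cells and 0 to 1 where leaving out a library moved them.

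Tnfrsf18, at -0.17 between conditions, ranged from -0.61 to 0.19 with 1 library left out and was 0.50 in filtered Tregs, where it was 0.47 with library totals, 0.55 with DESeq2 size factors, 0.64 with DESeq2, 0.43 with the block and -0.40 to 1.19 with a library left out. Ikzf2 was -1.62 to -0.96 with a library left out and -0.82 to 0.15 in filtered Tregs. The H2-Ab1 interaction was 2.57 to 4.05 with a library left out. Against all Foxp3-zero T cells it was -0.69 and that of H2-Aa -0.84, and -14.61 and -14.18 there in filtered barcodes. In filtered barcodes without the expression filter they were -3.06 and -3.47, and H2-Ab1 was -3.45 without rhabdomyolysis replicate 1 or 2. The cause was not tested for any of these. Comparisons between conditions could not be run on libraries with at least 10 Tregs, since these are the 3 controls. With 23 rhabdomyolysis Tregs, genes near 1 UMI per library could not be tested.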
